A study of Homo sapiens with 2 samples.

Results

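Chromosome 20 held 8268 distal FAIRE-seq peaks in HepG2 cells, of 46224 distal peaks and 56159 peaks of any kind in the whole series. A peak counted as distal when the deposited annotation placed it in an intron or between genes, so that promoter, exon, transcription end and other classes were left out, and the members were thus chosen by 2 readouts, being called as a peak and the annotated position of that call. Of all 9177 peaks on the chromosome, the distal ones made up 80.1% of the common list, 92.5% of the control-specific list and 92.5% of the depleted-specific list. HepG2 is an established human liver cancer line. Cells received lentiviral particles carrying either a scrambled hairpin (shCT, control) or a hairpin that targets NR2E3, a nuclear receptor (shNR2E3, NR2E3-depleted). Each group had 1 library, so nothing below has a replicate check and no test between the groups was possible. All intervals are at the 95% level and reflect counting error alone, as if each peak were independent of its neighbours. The question was how loss of NR2E3 changes which chromatin is open.

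FAIRE recovers DNA that formaldehyde does not tie to protein, which is mostly DNA free of nucleosomes. Distal open sites are often enhancers, where sequence-specific factors bind away from a start site, and in liver cells HNF4A and the FOXA factors occupy many of them. Chromosome 20 carries the genes of several liver regulators, among them HNF4A on the long arm and FOXA2 on the short arm. NR2E3 is a DNA-binding orphan receptor that is best known from photoreceptors. HepG2 is known to carry extra copies of some chromosomes, chromosome 20 among them. Copy number was not measured in these lists, no correction of the peak calls for it or for an input library is stated, and its part in the numbers below was not tested.

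Windows of 201 bases around the centres of 6 peaks are shown to make concrete what the lists hold. They are the plus strand of hg38, 5′ to 3′, and capitals mark matches to the motifs searched below. The first window is the strongest peak of the chromosome and is built of GGAAT repeats. The second and the third lead the lists that differ between the libraries. The fourth lies in the gene of a liver regulator and carries a FOXA match, written GTAAACA on this strand. The fifth carries the HNF4 match TGGACTTTG, and the last carries the NR2E3 half-site AAGTCA. The capitals in the first and the third window are CCAAT matches, read as ATTGG.
Highest-scoring common peak (score 79.3, intergenic), chr20:31068352-31068552: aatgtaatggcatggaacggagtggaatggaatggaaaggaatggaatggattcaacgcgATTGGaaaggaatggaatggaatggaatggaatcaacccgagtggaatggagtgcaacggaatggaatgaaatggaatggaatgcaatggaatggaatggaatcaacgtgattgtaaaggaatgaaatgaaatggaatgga
Highest-scoring control-specific peak (score 14.6, intron 1 of PLCB1), chr20:8144778-8144978: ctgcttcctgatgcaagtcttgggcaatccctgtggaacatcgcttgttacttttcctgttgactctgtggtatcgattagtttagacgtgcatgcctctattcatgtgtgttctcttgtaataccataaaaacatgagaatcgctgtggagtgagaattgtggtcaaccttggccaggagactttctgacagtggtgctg
Highest-scoring depleted-specific peak (score 18.8, intergenic, nearest gene LINC00261), chr20:22511954-22512154: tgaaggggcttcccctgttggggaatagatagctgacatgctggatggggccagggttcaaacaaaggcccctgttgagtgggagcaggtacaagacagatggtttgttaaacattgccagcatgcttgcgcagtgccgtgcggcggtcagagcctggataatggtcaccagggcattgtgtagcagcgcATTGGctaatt
Highest-scoring common peak nearest to HNF4A (score 10.2, intron 1 of HNF4A), chr20:44370788-44370988: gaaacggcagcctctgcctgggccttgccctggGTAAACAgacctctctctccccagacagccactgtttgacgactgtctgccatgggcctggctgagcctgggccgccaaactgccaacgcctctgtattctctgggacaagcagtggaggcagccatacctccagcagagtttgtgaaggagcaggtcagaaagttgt
Highest-scoring common peak outside 25 to 32 Mb (score 19.5, intron 1 of KIF3B), chr20:32289709-32289909: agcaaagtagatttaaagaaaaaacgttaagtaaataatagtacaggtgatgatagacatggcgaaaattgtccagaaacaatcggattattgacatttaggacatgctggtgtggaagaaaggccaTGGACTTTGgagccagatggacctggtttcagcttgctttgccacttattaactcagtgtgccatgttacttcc
Next common peak by score outside 25 to 32 Mb (score 17.9, intron 1 of BANF2), chr20:17722083-17722283: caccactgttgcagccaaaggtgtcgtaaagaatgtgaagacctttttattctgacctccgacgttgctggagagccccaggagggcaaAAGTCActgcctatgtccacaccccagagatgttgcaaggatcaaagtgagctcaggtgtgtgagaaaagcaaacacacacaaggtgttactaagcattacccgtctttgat

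The 3 lists divided the chromosome as follows. The common list, holding peaks called in both libraries, had 1417 distal peaks (17.1% of the 8268, where 22.1% of distal peaks of the series were common). The control-specific list had 3214 (38.9%, against 31.3% in the series). The depleted-specific list had 3637 (44%, against 46.5% in the series). These shares follow from the same calls that chose the members and are given as a description. For each control-specific peak there were 1.13 depleted-specific ones (1.08 to 1.19), and the whole NR2E3-depleted library had 1.09 times as many distal peaks as the control library (1.06 to 1.13). Of the control library's distal peaks, 30.6% were common (29.3 to 31.9), and of those of the NR2E3-depleted library 28% were (26.8 to 29.3).

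The direction of the excess depended on how peak strength was set. The peak score is a scaled number of sequence tags, and 1 tag was worth 0.407 score units in the control-specific and common lists but 0.507 in the depleted-specific list. With a score of at least 6 the ratio of depleted-specific to control-specific peaks was 1.84 (1.72 to 1.97). With at least 14 tags it was 0.379 (0.350 to 0.409), below 1. The score threshold kept 43.9% of the control-specific list and 71.5% of the depleted-specific list, whereas the tag threshold kept 71.9% and 24.1%. Which library had more open distal sites on this chromosome therefore could not be read from the numbers alone.

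Per length, chromosome 20 was the densest of chromosomes 1 to 22 and X. It holds 2.20% of their determined sequence, but 13.9% of their common, 22.2% of their control-specific and 16.9% of their depleted-specific distal peaks. There were 129.3 distal peaks per Mb, against 93.8 on chromosome 14, the next in order, and a median of 6.20 over the 23 chromosomes. The density was 20.9 times that median for all lists, 43.2 times for control-specific, 16.7 times for depleted-specific and 14.7 times for common ones. Only in the common list did another chromosome stand higher, chromosome 14 with 24.3 per Mb against 22.2. Chromosomes 2, 6, 14, 16, 17 and 20 each had over 3 times the median control-specific density and are called dense here.

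The mix of the specific lists on chromosome 20 lay near that of chromosomes 14 and 16. Depleted-specific peaks were 53.1% of the specific peaks (51.9 to 54.3). On chromosome 16 the share was 53.6%, a difference of -0.492 points with an interval of -2.47 to 1.49. On chromosome 14 it was 50.7%, 2.34 points lower (0.620 to 4.06). Chromosomes 2, 6 and 17, by contrast, had 60.5%, 61.1% and 61.2%. Over the other 5 dense chromosomes together the share was 56.3%, leaving chromosome 20 at -3.25 points (-4.62 to -1.88). The chromosomes that were not dense had 73.0%, a difference of -19.9 points (-21.4 to -18.4). The common share of the control library, 30.6% on chromosome 20, was below the 39.6% of the other dense chromosomes and the 55.6% of the rest.

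The peaks of the short and the long arm differed in number and in mix. The arms were divided at 28 Mb, inside the centromere, which left 27.9 Mb of determined sequence on the short and 36.1 Mb on the long arm. The short arm had 454 common, 1169 control-specific and 1499 depleted-specific sites, in all 112 per Mb (108.1 to 116). The long arm had 963, 2045 and 2138, in all 142.7 per Mb (138.8 to 146.6). The long arm was therefore denser by 1.27 times (1.22 to 1.33). The excess was 1.64 times for common (1.47 to 1.84), 1.35 times for control-specific (1.26 to 1.45) and 1.1 times for depleted-specific peaks (1.03 to 1.18).

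The 3 arm ratios above leave the depleted-specific list as the one spread most evenly. On the short arm there were 1.28 depleted-specific peaks for each control-specific one (1.19 to 1.39), and on the long arm 1.05 (0.984 to 1.11). As shares of specific peaks these were 56.2% and 51.1%, a difference of -5.07 points for the long minus the short arm (-7.51 to -2.63). Unlike the overall ratio, this difference kept its sign under both thresholds of peak strength, at -6.15 points with a score of at least 6 and -3.45 points with at least 14 tags. Among intergenic peaks alone it was -3.26 points with an interval that included 0 (-6.79 to 0.280), and among intron peaks -6.70. Common peaks also took a larger share of the long arm, 18.7% against 14.5%.

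**Figure D1:**
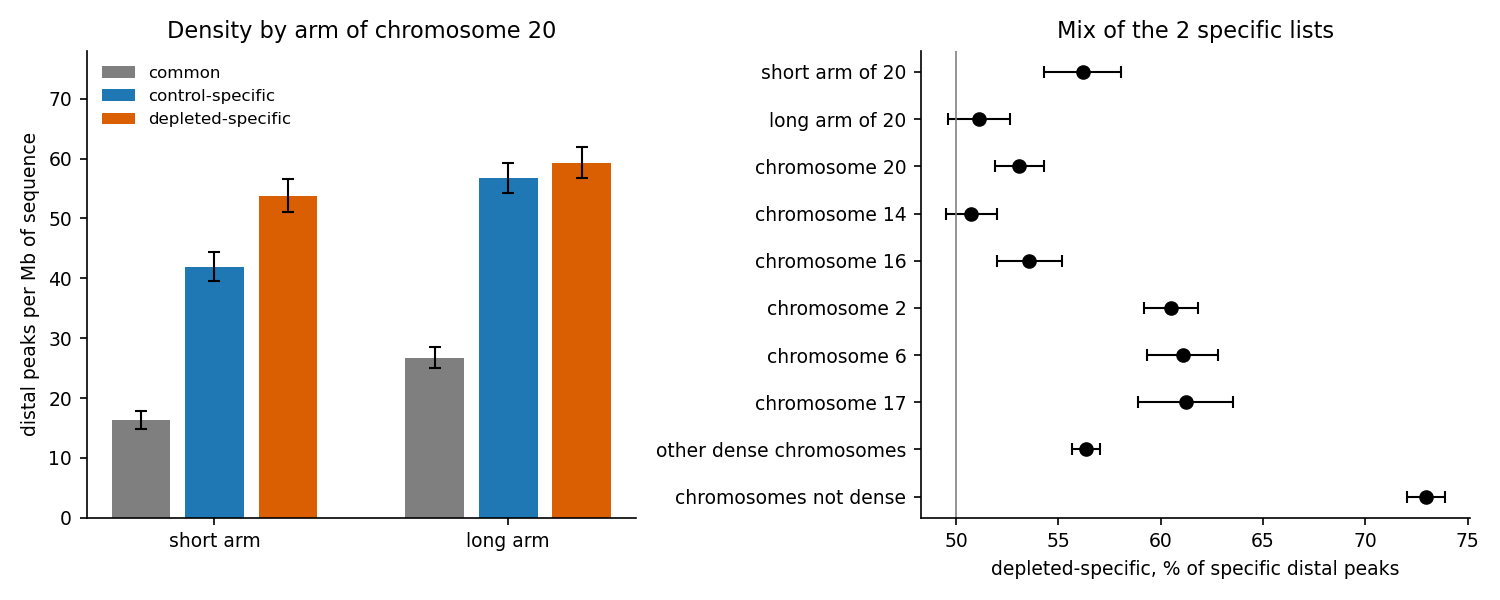
Left, distal peaks per Mb of determined sequence on each arm of chromosome 20, by list, with Poisson 95% intervals as error bars. Right, depleted-specific peaks as a percentage of both specific lists, with exact 95% intervals, for the arms of chromosome 20, the whole chromosome and others. The control-specific bar grows from 41.9 to 56.7 per Mb between the arms and the depleted-specific bar from 53.8 to 59.3, and the short arm point lies at 56.2% and the long arm point at 51.1%.

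GC content moved with the mix. The short arm has 41.7% GC and the long arm 45.5%. When 61 bins of 1 Mb with over 0.9 Mb of sequence were ranked by GC content, the 21 with the lowest GC (36.9 to 41.8%) had 1.36 depleted-specific peaks per control-specific one (1.23 to 1.5). The middle 20 had 1.12 (1.03 to 1.21) and the highest 20 1.01 (0.931 to 1.09). Peak density went the other way, from 96.1 per Mb in the lowest class to 140.5 and 159.7. Within the lowest class the arms were close, at 1.37 on the short arm (15 bins) and 1.32 on the long arm (6 bins). In the middle class they were 1.21 and 1.04, with 10 bins each. In the highest class the short arm had only 2 bins, at 1.17, and the long arm 18, at 0.991. With both arms weighted to the same GC classes, a choice made after the data were seen, the arm difference was -3.25 points in place of -5.07. The part of GC content in the mix was not otherwise tested.

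The GC content of single peaks also moved with the mix, though not in every class. The median window had 44.8% GC in common, 43.8% in control-specific and 43.3% in depleted-specific peaks, against 43.3% over all windows of the chromosome. Peaks under 35% GC had 1.33 depleted-specific per control-specific peak (0.998 to 1.77), those of 40 to 45% had 1.16 (1.07 to 1.25) and those of 50 to 55% had 0.989 (0.855 to 1.15), but those of 55% or more had 1.09 (0.857 to 1.38). Common peaks were 10.0% of the members under 35% GC and 35.9% of those at 55% GC or more. Across the 61 bins, GC content and the depleted-specific share had a Pearson correlation of -0.553, with -0.336 within the short and -0.514 within the long arm. Neighbouring bins share sequence composition and gene content, and all bins share the same pair of libraries, so these coefficients are a description.

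**Figure D2:**
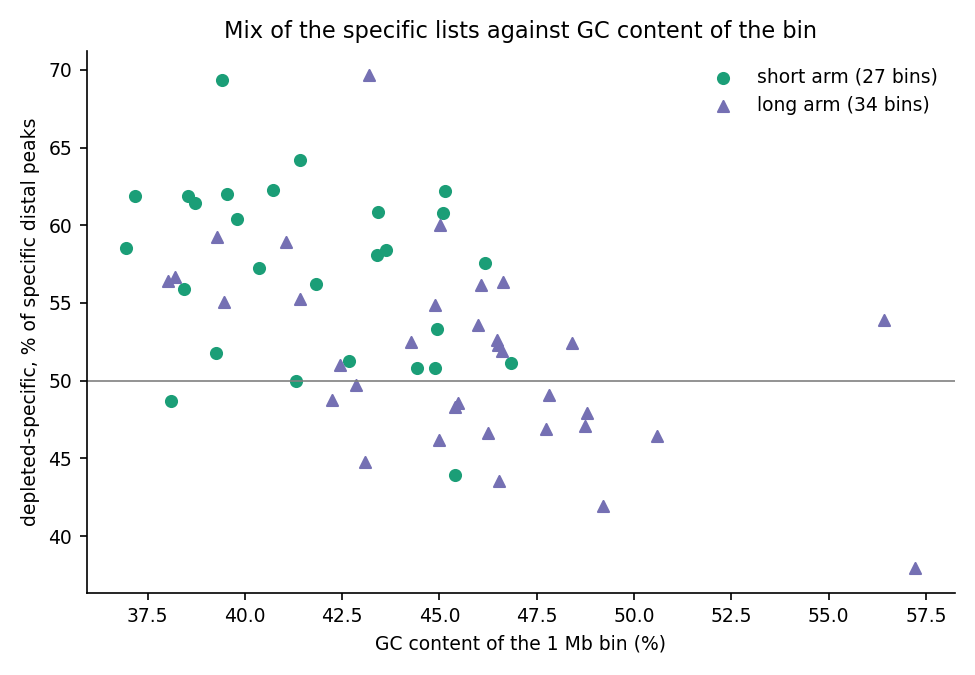
Each point is a 1 Mb bin of chromosome 20 with over 0.9 Mb of determined sequence, 61 in all, with its GC content on the horizontal axis and the depleted-specific percentage of its specific peaks on the vertical axis. Circles are the 27 short arm bins and triangles the 34 long arm bins. Bins with low GC lie mostly above the line at 50%, and bins with high GC lie on both sides of it.

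In 1 Mb bins the distal peaks ran unevenly along the chromosome. Of 65 bins, the median held 122 peaks, with quartiles of 82 and 170, and 21 bins held 50.1% of all members. The coefficient of variation over bins was 70.2% for common, 48.1% for control-specific and 39.8% for depleted-specific peaks, where counting alone would give 21.5%, 14.1% and 13.2%. The depleted-specific list was thus the most even and the common list the most clustered. In segments of 10 Mb from the short arm end, the density went from 121 per Mb in the first to 114 and 94.6, was highest at 30 to 40 Mb with 173, and then was 160, 133 and, over the last 4.33 Mb, 82.4. The ratio of depleted-specific to control-specific peaks was highest at 10 to 20 Mb, at 1.41 (1.24 to 1.61), and lowest at 40 to 50 Mb, at 0.988 (0.886 to 1.1).

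The richest bins all lay on the long arm. The bin at 50 to 51 Mb held 260 peaks (68 common, 100 control-specific, 92 depleted-specific), 53 of them nearest to PTPN1, which encodes a tyrosine phosphatase of insulin signalling. The bin at 53 to 54 Mb held 251 (52, 100 and 99), with SUMO1P1 and TSHZ2 as the leading genes. The bin at 47 to 48 Mb held 246 (53, 109 and 84) around SULF2 and NCOA3. At the other end, the bin at 27 to 28 Mb, in the centromere, held 0 peaks, the incomplete last bin at 64 to 65 Mb held 25 and the bin at 55 to 56 Mb held 42. Among the bins with fewest peaks, that at 15 to 16 Mb inside the long gene MACROD2 held 44, only 2 of them common.

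Most bins leaned to the depleted-specific side, and few leaned far. There were more depleted-specific peaks in 46 bins, more control-specific peaks in 17 and equal numbers in 1. On the short arm the split was 24 against 2, and on the long arm 22 against 15. A bin with at least 10 specific peaks was called when it had at least 2 times as many of one list as of the other. On chromosome 20, 3 of 64 such bins were called toward depleted-specific, where 40.7% of 752 bins over chromosomes 1 to 22 and X were called. None of the 64 was called toward control-specific, where the figure for all chromosomes was 0.399%. The other dense chromosomes had 115 of 415 bins called toward depleted-specific, and the chromosomes that were not dense 188 of 273. These calls use the lists that define the members, so the comparison is a description and no test. The rule also follows the ratio of each part as a whole. That ratio was 1.13 on chromosome 20, 1.29 on the other dense chromosomes and 2.70 on those not dense. Bins with few specific peaks also reach a 2-fold difference more easily by counting error.

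Of the 3 called bins, 2 flanked the centromere. The bin at 26 to 27 Mb had 20 common, 19 control-specific and 43 depleted-specific sites, a ratio of 2.26 (1.29 to 4.11), and all 82 were nearest to MIR663AHG, the host gene of a microRNA beside the centromere. The bin at 30 to 31 Mb, on the other side of the centromere, had 4, 14 and 28, a ratio of 2.0 (1.02 to 4.11), with DEFB115 as the nearest gene of 40. The bin at 60 to 61 Mb had 2, 17 and 39, a ratio of 2.29 (1.27 to 4.32), near MIR548AG2 and MIR646. The lowest ratio of any bin, 0.611, was at 63 to 64 Mb. Only 2 bins had an interval wholly above the ratio of the chromosome and 4 wholly below it, which is the precision that a bin of this size allows.

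**Figure D3:**
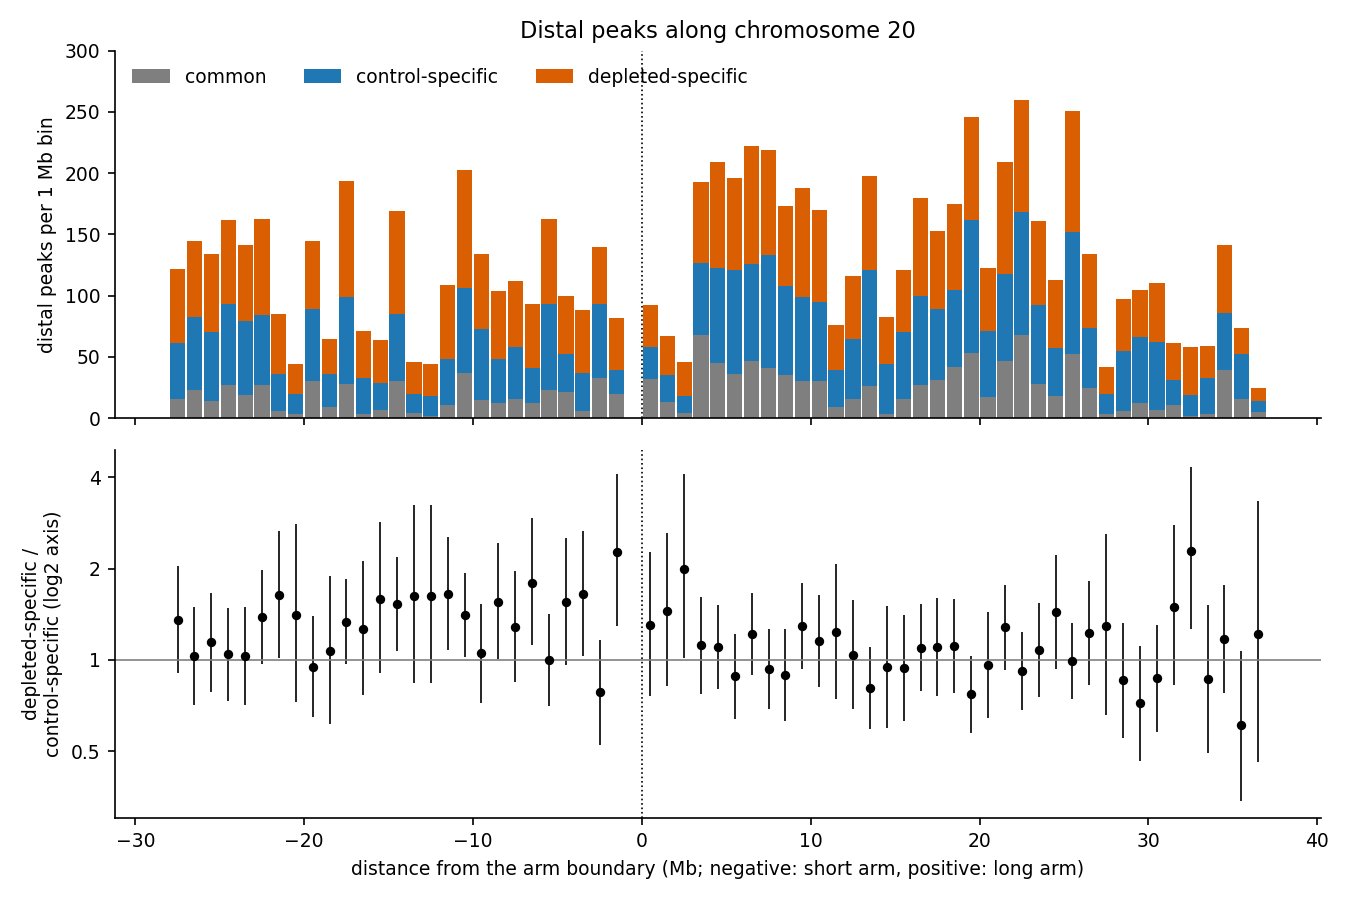
Top, distal peaks in each 1 Mb bin of chromosome 20, stacked by list, against distance from the arm boundary. Bottom, the ratio of depleted-specific to control-specific peaks in each bin with at least 10 of them, on a log2 axis, with exact 95% intervals as bars and a line at 1. Bins reach 260 peaks on the long arm, the bin left of the boundary is empty, and short arm points lie above 1 in 24 of the 27 bins shown, with 2 below it.

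The lists tracked each other along the chromosome. Over the 61 bins the numbers of control-specific and depleted-specific peaks had a Pearson correlation of 0.859 (Spearman 0.889), with 0.844 within the short and 0.893 within the long arm. Common peaks followed control-specific peaks at 0.818 and depleted-specific peaks at 0.799. The number of protein-coding genes in a bin followed peak number less closely, with a Pearson correlation of 0.346 (Spearman 0.540). In each bin the lists share the same sequence and peak caller, copy number was not measured, and no more than a description is meant.

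Neighbouring distal peaks lay close together. The median distance from one peak to the next was 3669 bp (3533 to 3803) over all lists, and 16.9% of neighbours lay within 1000 bp. Within a list the median was 13853 bp for common, 10221 bp for control-specific and 9079.5 bp for depleted-specific peaks. Of the control-specific peaks, 19.9% (18.5 to 21.3) had a peak of the NR2E3-depleted library within 1000 bp, and of the depleted-specific peaks 18.7% had one of the control library. Such pairs are listed as differing between the libraries although they lie within about 1 kb of each other. Chromosome 20 was the densest chromosome, and the share that peak density alone would give was not computed. How common was told from specific is not stated.

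Shared peaks were the strong ones. The lowest listed scores on the chromosome were 4.47, 4.07 and 4.56 in the common, control-specific and depleted-specific lists, equal to 11, 10 and 9 tags. The medians were 6.51, 5.69 and 6.08, equal to 16, 14 and 12 tags, and counting error alone puts a peak of 14 tags between 7.65 and 23.5. Among control-library peaks with a score of 5 to 6, 18.8% were common (17.1 to 20.6). This share was 29.1% at 6 to 7, 48.2% at 7 to 8, 75.2% at 8 to 10 and 93.6% at 10 or more (88.8 to 96.7). Scores of at least 10 were held by 160 common, 11 control-specific and 44 depleted-specific sites, though this score stands for fewer tags in the depleted-specific list. The medians of each list were the same on both arms. Scores of common peaks are those of the control library, and their strength in the NR2E3-depleted library was not analysed here.

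The strongest peaks stood beside the centromere. All 5 peaks with a score of 20 or more lay between 28 and 32 Mb. The highest, with a score of 79.3 or 195 tags, is the first sequence shown above, at chr20:31068302-31068602, with 19 copies of GGAAT in its window. The next, at chr20:28495642-28495942 with a score of 66.7, had 0 copies. Windows with at least 8 copies of GGAAT on one strand, a count chosen after the sequence was seen, were found in 59 members (0.714%), all between 31 and 32 Mb, and in 0.234% of all windows of the chromosome. Of these 59, 30 were common, 18 control-specific and 11 depleted-specific, with scores from 4.88 to 79.3 and a median of 8.13. The stretch from 25 to 32 Mb held 620 of the members and 48 of the 215 with a score of at least 10. Repeats of this kind can draw reads from other copies, and the part of that in these scores was not tested. The central 50 bases recurred elsewhere on the chromosome for 4.52% of the members from 25 to 32 Mb and 0.615% of the others.

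Outside that stretch no member reached a score of 20, and the leading ones lay in first introns or between genes. The peak in intron 1 of KIF3B, a kinesin motor gene, had a score of 19.5 (48 tags), and that in intron 1 of BANF2 had 17.9 (44 tags). The strongest control-specific peak, with 14.6 (36 tags), lay in intron 1 of PLCB1, 12.6 kb from the start site used. The strongest depleted-specific peak, with 18.8 (37 tags), lay 66.6 kb from the start of LINC00261, a long noncoding RNA gene that neighbours FOXA2. Each of these specific peaks was called in 1 library only, and none has a second library to repeat it.

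Introns and intergenic sequence held nearly equal parts of each list. Introns held 51.7% of common and 53.0% of control-specific peaks, and 52.2% of depleted-specific ones. The difference between the specific lists was -0.836 points for depleted-specific minus control-specific, with an interval of -3.22 to 1.55 that included 0. The ratio of depleted-specific to control-specific was 1.11 in introns and 1.15 between genes. Among intron peaks, intron 1 held 37.3% of common, 30.4% of control-specific and 30.6% of depleted-specific ones. Common peaks also lay nearer to start sites, at a median of 21.7 kb (19.9 to 24.1), against 28.6 kb (26.7 to 30.4) for control-specific and 30.4 kb (28.7 to 32.1) for depleted-specific peaks. Of all members, 16.2% lay over 100 kb from the nearest start site, the farthest at 532 kb.

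Some very long genes held the most intronic peaks in number, and some shorter ones held more per length. Genes without an intronic peak were not counted. PLCB1, encoding a phospholipase C, held 120 in its introns (26 common, 48 control-specific, 46 depleted-specific), or 15.9 per 100 kb of gene. TSHZ2, a zinc finger gene, held 101 and PTPRT, a receptor phosphatase gene, 85, the latter at 7.34 per 100 kb. MACROD2, the longest of these at 2058 kb, held 79 at 3.84 per 100 kb, of which 5 were common, 26 control-specific and 48 depleted-specific. RALY, an RNA-binding protein gene, held 44 at 48.4 per 100 kb. SLC13A3, which encodes a dicarboxylate transporter, held 50 at 39.5 per 100 kb, and 21 of these were common. The gene around an intronic peak was also its nearest gene in 62.4% of 4317 peaks with a named host.

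The nearest start sites belonged to 677 genes. The median gene had 8 distal peaks, 60 genes had 1, and 131 genes with at least 20 peaks took 54.6% of the members. More depleted-specific than control-specific peaks were found at 324 genes, more control-specific at 231 and equal numbers at 122, and 365 genes had peaks of all 3 lists. A peak of the promoter class was listed for 298 of the 677 genes (44%). The nearest gene is a label of position and need not be a target.

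**Figure D4:**
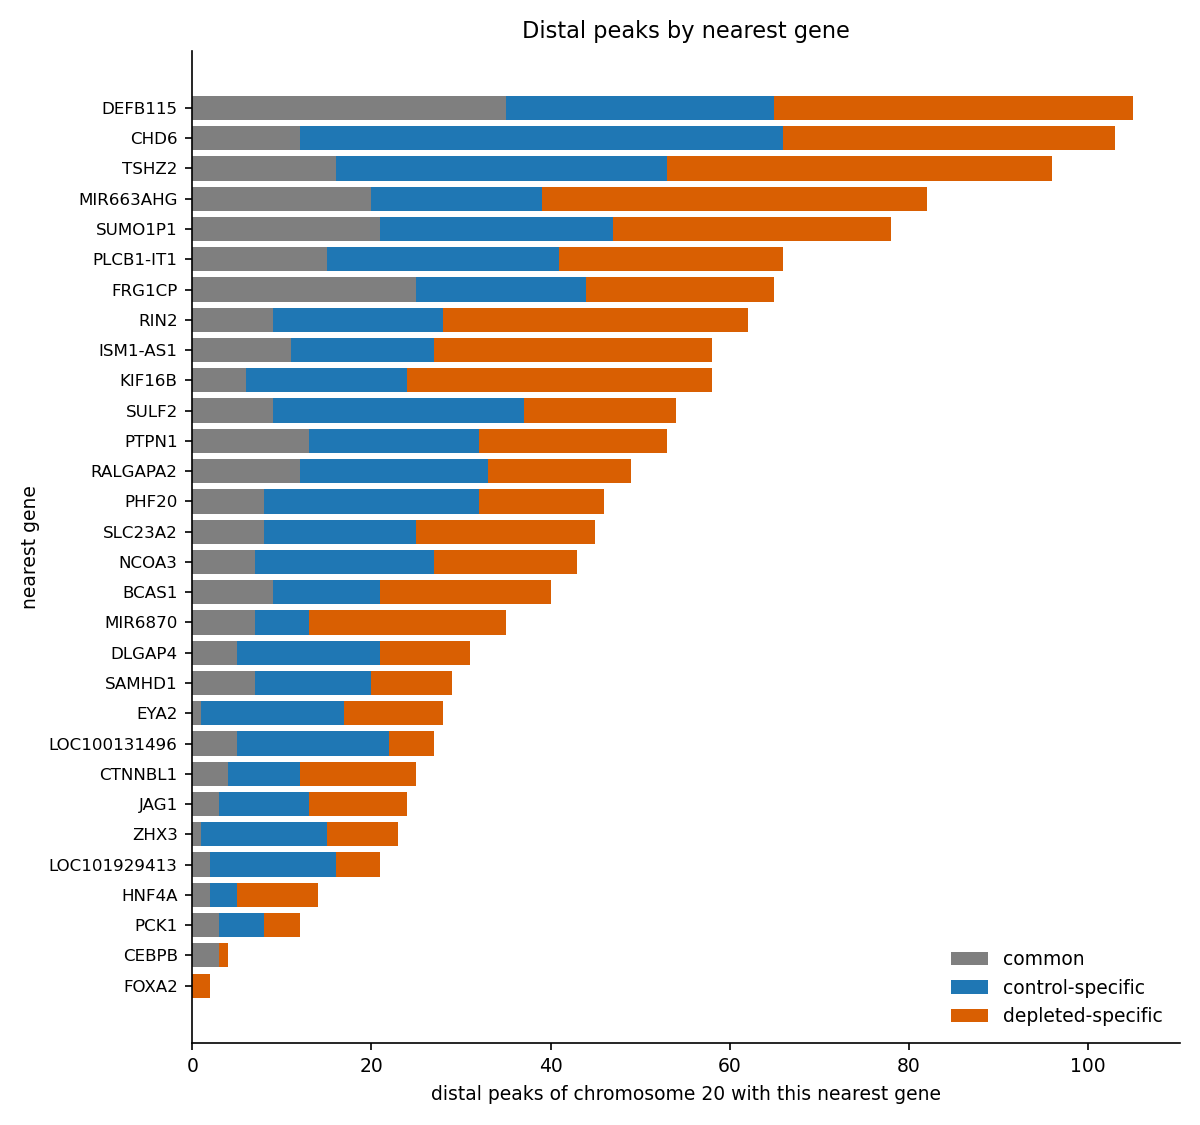
Distal peaks of chromosome 20 by nearest gene, with bars stacked by list, for the genes with most peaks, those with the largest excess of a specific list, leading genes of the gene groups and 5 liver or Notch genes. DEFB115 (105), CHD6 (103) and TSHZ2 (96) have the longest bars, and the control-specific part is widest at CHD6.

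Most peaks of the leading genes lay between genes or in long introns. DEFB115, a beta-defensin gene at chr20:31257664-31259632, was nearest to 105 peaks (35 common, 30 control-specific, 40 depleted-specific), 103 of them intergenic and reaching up to 372 kb away. CHD6, a chromatin remodeller gene at chr20:41402083-41618384, was nearest to 103. Of these 12 were common, 54 control-specific and 37 depleted-specific. TSHZ2 had 96 (16, 37 and 43), of which 73 lay in its own introns. MIR663AHG had 82 (20, 19 and 43), SUMO1P1, a pseudogene, 78 (21, 26 and 31), and FRG1CP, a pseudogene beside the centromere, 65 (25, 19 and 21). The 66 peaks of PLCB1-IT1 (15, 26 and 25) all lay in introns of PLCB1.

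An excess of depleted-specific peaks was largest at MIR663AHG, with 24 more, and then at KIF16B and MIR6870, with 16 more each. KIF16B, which encodes an endosomal kinesin, had 6 common, 18 control-specific and 34 depleted-specific sites, and 28 of the 34 lay in its own introns. MIR6870, a microRNA gene within JAG1, had 7, 6 and 22, and 12 of the 22 lay in introns of its neighbour SLX4IP and 7 in introns of JAG1. RIN2, a regulator of the small GTPase Rab5, had 9, 19 and 34, with 11 of the 34 in SLC24A3 and 14 between genes. ISM1-AS1 had 11, 16 and 31. MIR663AHG, KIF16B, MIR6870, RIN2 and ISM1-AS1 all lie on the short arm, where depleted-specific peaks were the more numerous overall.

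An excess of control-specific peaks was largest at CHD6, with 17 more, and 38 of its 54 control-specific peaks were intergenic, against 23 of its 37 depleted-specific ones. Introns of CHD6, whatever the nearest gene, leaned the other way, with 8 common, 19 control-specific and 26 depleted-specific peaks. LOC100131496 followed with 5 common, 17 control-specific and 5 depleted-specific peaks, all in introns of ZMYND8, a chromatin reader gene. Introns of ZMYND8 as a whole were nearer to balance, with 10, 23 and 19. SULF2, which encodes a heparan sulfate editing enzyme, had 9, 28 and 17. PHF20, another chromatin reader gene, had 8, 24 and 14, with 20 of the 24 in its own introns. LOC101929413, on the short arm near JAG1, had 2, 14 and 5, and was taken as the first by position of 4 genes with 9 more control-specific peaks, the others being LOC284788, FAM83D and TFAP2C. The genes in this and the preceding paragraph were selected on the difference between the lists, so their numbers carry no test.

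Of the liver regulators HNF4A, FOXA2 and CEBPB, only HNF4A was nearest to more distal peaks than the median gene, which had 8. Peaks at promoters were listed for all of them. Introns of HNF4A held 23 distal peaks (6 common, 7 control-specific, 10 depleted-specific), some of them labelled with other nearest genes. HNF4A, the nuclear receptor that governs many hepatocyte genes, lies at chr20:44355699-44432845. It was nearest to 14 distal peaks (2 common, 3 control-specific, 9 depleted-specific), and common promoter peaks stood at 2 of its start sites, with a control-specific promoter peak (score 6.51) beside the first. The common intron 1 peak, shown above, had a score of 10.2. A further common peak at -3.50 kb from the start site, where minus marks upstream, had 8.54. The 9 depleted-specific peaks included 8 in introns of HNF4A, with scores of 5.58 to 6.59, or 11 to 13 tags. Toward the end of the gene, where MIR3646 was named as nearest, 5 common peaks had scores of 6.91 to 12.2. Among distal peaks in introns of HNF4A, common peaks thus had scores of 6.91 to 12.2 and specific peaks 4.88 to 7.1. The depleted-specific scores are on the other scale. The 2 common promoter peaks had lower scores than these common intron peaks, at 6.51 and 5.29.

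FOXA2, a pioneer factor gene at chr20:22580998-22585455, had a common promoter peak with a score of 9.35 and only 2 distal peaks, both depleted-specific, with scores of 5.58 and 6.08. CEBPB, which encodes a basic leucine zipper factor of the acute phase response, had 4, of which 3 were common (scores 6.91, 7.32 and 11.0) and 1 was depleted-specific. Its promoter had no common peak but a control-specific one (score 7.73) and a depleted-specific one (8.11), listed next to each other. PCK1, encoding the enzyme that commits carbon to gluconeogenesis, had a common promoter peak with a score of 9.76 and 12 distal peaks (3 common, 5 control-specific, 4 depleted-specific), the strongest of them common, with 13.4, at 26.3 kb from the start. JAG1, a ligand of the Notch receptors on the short arm, had 24 (3, 10 and 11), with 1 common promoter peak (score 6.91) and 1 depleted-specific one (10.6). As for HNF4A, the depleted-specific scores of these genes are on the other scale and cannot be ranked against the rest.

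The 5 groups of genes were read as lists, chosen with earlier results of these data known. The 9 liver transcription factor genes and their neighbours had 22 common, 62 control-specific and 64 depleted-specific sites, a ratio of 1.03 (0.716 to 1.49) beside 1.13 for the whole chromosome. NCOA3, a coactivator gene of nuclear receptors, had 43 peaks (7, 20 and 16), and ZHX3 had 23 (1, 14 and 8). Liver metabolism and plasma protein genes, 21 of 22 with a peak, had 92, 137 and 162, a ratio of 1.18 (0.936 to 1.5). Of these, 14 genes had more depleted-specific and 6 more control-specific peaks, where among all 677 genes the numbers were 324 and 231. The members of the list differed widely. LBP, encoding a lipopolysaccharide-binding plasma protein, had 0, 1 and 7, SLC23A2, a vitamin C transporter gene, had 8, 17 and 20, and SAMHD1, a nucleotide hydrolase gene, 7, 13 and 9. Both intervals contain the ratio of the chromosome.

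Genes of 20q that are often gained in cancer, 23 of 24 with a peak, had 90 common, 177 control-specific and 158 depleted-specific sites, a ratio of 0.893 (0.716 to 1.11). CHD6 alone gave 54 of the 177. PTPN1 had 13, 19 and 21, BCAS1, a gene first found amplified in breast cancer, had 9, 12 and 19, and TFAP2C, a transcription factor gene, 0, 13 and 4. The 12 genes of Wnt, Notch, BMP and TGF-beta signalling or related function had 17, 89 and 65, a ratio of 0.730 (0.522 to 1.02). More control-specific peaks were found at 7 of them and more depleted-specific at 3, where among all 677 genes the numbers were 231 and 324. The intervals of both lists end below the 1.13 of the chromosome. That of the 20q genes, all on the long arm, includes the 1.05 of that arm. The signalling genes had ratios of 0.690 (0.370 to 1.26) on the short arm and 0.750 (0.498 to 1.12) on the long arm. The largest members do not do what the name of the list says, since DLGAP4 (5, 16 and 10) encodes a synaptic scaffold, EYA2 (1, 16 and 11) a phosphatase of development and CTNNBL1 (4, 8 and 13) a splicing protein. The ligand genes were BMP2, with 0, 8 and 3, BMP7, with 0, 7 and 3, GDF5, with 0, 1 and 1, and JAG1.

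The 27 long or neuronal genes had 66 common, 226 control-specific and 304 depleted-specific sites, a ratio of 1.35 (1.13 to 1.60). The list had more depleted-specific peaks at 17 genes and more control-specific at 7, where among all 677 genes the numbers were 324 and 231. The largest members, RIN2, KIF16B and RALGAPA2 (12, 21 and 16), are not known mainly as neuronal genes. The list lies mainly on the short arm, where 16 of its genes had 154 control-specific and 218 depleted-specific peaks, a ratio of 1.42 (1.15 to 1.75). On the long arm 11 genes had 72 and 86, a ratio of 1.19 (0.863 to 1.66). These ratios stand beside 1.28 and 1.05 for the arms as wholes.

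Matches to some of the motifs set the common peaks apart from the specific ones. Letters were searched on both strands of the 201-base windows, and all 318045 windows of the same length on the chromosome gave the background. No searched motif is contained in another. The FOXA letters TGTTTAC were in 5.65% of common windows (4.5 to 6.98), 3.33% of control-specific and 3.16% of depleted-specific ones, with 2.58% of all windows. The HNF4 letters CAAAGTCCA were in 1.62%, 0.373% and 0.605%, with 0.244% of all windows. The common list exceeded the control-specific list by 2.32 points for FOXA (0.986 to 3.77) and by 1.25 points for HNF4 (0.596 to 2.07). The specific lists did not differ beyond their intervals, at -0.167 points for FOXA (-1.04 to 0.692) and 0.232 points for HNF4 (-0.126 to 0.590), taken as depleted-specific minus control-specific.

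Score moved with these matches inside the common list. HNF4 matches were in 0.477% of common windows with a score under 6, 1.26% at 6 to 8 and 3.58% at 8 or more. FOXA matches were in 4.77%, 4.57% and 8.54%. Under a score of 6, HNF4 matches were in 0.388% of control-specific and 0.578% of depleted-specific windows, and FOXA matches in 3.94% and 2.22%. At 6 to 8 they were in 0.29985% and 0.471% for HNF4, and 2.399% and 3.25% for FOXA. At a score of 8 or more the depleted-specific windows had 6.08% for FOXA (3.52 to 9.69) and 1.90% for HNF4 (0.620 to 4.38). Control-specific windows had 5.13% (1.41 to 12.6) and 1.28% (0.0325 to 6.94). The common share was the highest in each class except for HNF4 under 6. In each class the intervals of the lists overlapped for both motifs. The part of peak strength in the distance between the common and specific lists was not tested. Compared with distal peaks of the other chromosomes, all members together had fewer FOXA matches, 3.65% against 4.92%, and fewer HNF4 matches, 0.689% against 1.21%.

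Among other factors, the core of the CTCF motif, AGNGGGCNC, was in 4.23% of common, 1.80% of control-specific and 2.06% of depleted-specific windows, with 2.18% of all windows. The Sp1 letters GGGCGG were in 4.59%, 2.15% and 2.01%, with 3.77% of all windows. All windows include promoters and exons, which the members leave out, so the lower share in specific distal peaks is a description. AP-1 letters (TGANTCA) were in 8.96%, 7.19% and 7.45%, with 6.02% of all windows. For AP-1 the common list exceeded the control-specific list by 1.78 points (0.0543 to 3.60). It did not differ beyond its interval from the depleted-specific list (-0.185 to 3.32). CEBP letters (TTGCNNCAA) were in 1.48%, 2.33% and 2.12%, with 2.02% of all windows, and the common list did not differ beyond its interval from the control-specific (-1.66 to 0.0670 points) or the depleted-specific list (-1.40 to 0.257). The NFY letters CCAAT were near the background in each list, at 27.0%, 27.8% and 26.0%, with 25.2% of all windows.

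The NR2E3 half-site AAGTCA was the 1 of 8 searched motifs for which the interval of the difference between the specific lists did not include 0. It was in 13.8% of common, 12.9% of control-specific and 14.8% of depleted-specific windows, with 13.3% of all windows. The depleted-specific list exceeded the control-specific list by 1.91 points (0.246 to 3.56). On the other chromosomes the order was the opposite, 14.8% in control-specific and 14.6% in depleted-specific windows, and the difference between these contrasts was not tested. The intervals were not widened for the 8 motifs searched. Over all lists of chromosome 20, the half-site was in 15.8% of short arm and 12.8% of long arm windows. The part of the arms in the difference between the specific lists was not tested. A match of 6 letters is a description and does not show that a factor was bound.

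**Figure D5:**
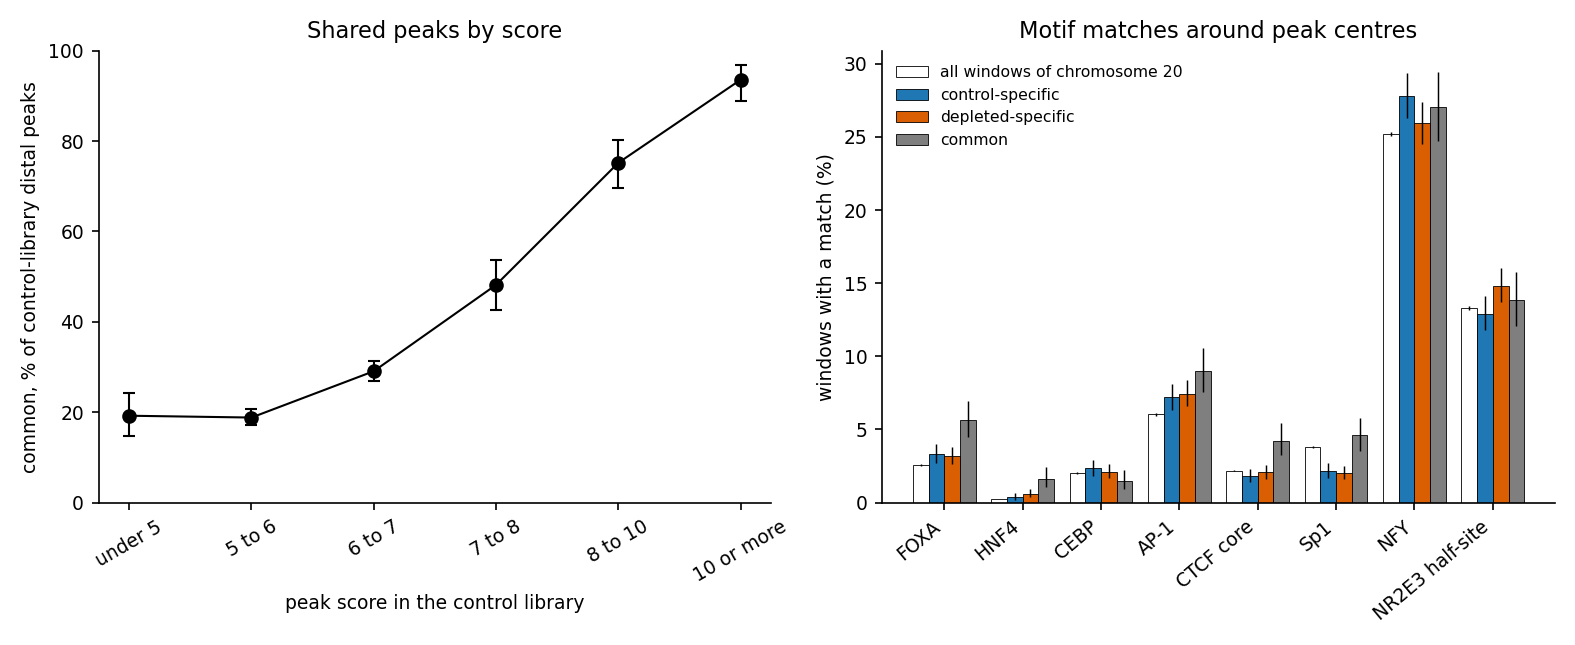
Left, common peaks as a percentage of the control library's distal peaks of chromosome 20 by score class, with exact 95% intervals. Right, the percentage of 201-base windows with a match to each of 8 motifs in all windows of the chromosome and in the 3 lists, with exact 95% intervals. The left curve goes from 19.2% to 93.6%, and on the right the common bar is highest for FOXA, HNF4, AP-1, CTCF and Sp1.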

How the data were processed

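FAIRE-seq was measured in HepG2 cells with scrambled (control) or NR2E3-targeting hairpin RNA, 1 library per group. Per the labels and the study's methods, the authors processed base calls with bcl2fastq 2.17, removed adapters with Trimmomatic 0.39, mapped reads to hg38 with Bowtie2 2.4.5, used SAMtools 1.14, called peaks with HOMER at a q-value threshold and annotated them. They deposited 3 lists of 300 bp peaks with an annotation, a nearest gene and a score, a scaled tag number. Scores under 10 were whole multiples of 1 step for 100% of peaks of each list. If the scale is 10 M tags (M, mega), which is not stated, depth was 24.6 M tags in the control and 19.7 M in the NR2E3-depleted library.

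Samples were grouped by the labelled treatment. Members were rows on chromosome 20 annotated as intron or intergenic, binned by peak centre. Peaks of a library were its specific plus the common peaks. Intervals are Clopper-Pearson for shares, Newcombe for differences of shares, conditional binomial for ratios, Poisson for densities and order statistics for medians. They cover counting error only, and no test was run. GENCODE release 44 gave gene coordinates, and intron hosts came from RefSeq. The members and gene lists were chosen with earlier results of these data known. Named genes were the 10 with most distal peaks, the 5 with the largest excess of each specific list, the 3 with most peaks of each list and 5 set genes. Among all genes so named, 1 is not reported here. Other list members named were chosen after their values were seen. Alternatives covered thresholds of strength, merging, annotation classes, bins, the centromere and the searched window. Calculations were checked on simulated data. Computations used pandas 2.3.3, numpy 2.4.6 and scipy 1.17.1 in Python 3.11.15, and figures matplotlib 3.10.9.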

Additional observations from a re-analysis of the deposited data

How the results depend on the processing

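With 1 library per group no replicate could be left out. No paired analysis was possible because the control and NR2E3-depleted groups have a single library apiece. A score of at least 6 in all lists moved the specific ratio to 1.84, the library ratio to 1.49, the common share of the control library to 41.4% and the spacing to 5591.5 bp. At least 14 tags for specific peaks, with every common peak kept, reversed both ratios, to 0.379 and 0.615, and gave a common share of 38.0% and -5.92 points between chromosome 20 and the other dense chromosomes. Both shifts follow from how many peaks of each list a threshold keeps, since a tag is worth a different score in each library. The common share was 33.7% over all annotation classes, 35.3% and 44.4% with specific peaks within 500 and 1000 bp of the other library counted as common, and 29.3% without 25 to 32 Mb, a choice made after seeing the data. The control-specific arm ratio was 1.23 for intergenic and 1.47 for intron peaks. The called bins fell from 3 to 1 with 2 Mb bins and to 1 with ratios relative to the chromosome. Spacing within lists was 13853, 10221 and 9079.5 bp. Without 25 to 31 Mb the intron difference reversed to 0.0139 points, inside its interval. Searching whole peaks gave 5.27% for FOXA, 0.955% for HNF4, 3.08% for CEBP, 10.8% for AP-1, 3.19% for CTCF, 3.63% for Sp1, 36.8% for NFY and 20.6% for the NR2E3 half-site, as longer windows must give at least as many. The other 56 values stayed within the interval of the reported value or, for numbers of bins, within 1.5 times it, among them each arm difference in mix, all negative. Arm length without repeats and peaks outside repeats were not run, because the sequence and annotation used here do not mark repeats. At medians of 12 to 16 tags per peak, absence from a list does not show absence of open chromatin.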
